A study of Ovis aries with 18 samples.

Results

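GNAS was represented by 3 of the 24,355 SNPs in the deposited table of allele counts, which covers 5,810 genes, so that it is 1 gene of 5,810. The members are all SNPs assigned to this gene, and at each of them the reads of both alleles were taken in every animal called heterozygous. All 3 SNPs lie in coding sequence on chromosome 13 of the Oar v3.1 sheep genome and were annotated as synonymous. They are at chr13:56777673, chr13:56778816 and chr13:56778837 and are called the first, second and the third SNP here. Written as the reference base, the position on the chromosome and the alternate base, they are G56777673A, G56778816A and A56778837G. The first and the second SNP are 1,143 bp apart and the second and the third 21 bp, which is within a single read of 100 bp.

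The RNA came from perirenal adipose tissue (PRAT), the fat around the kidney, of 18 wild type Merino fetuses at 132 days post conception, each sequenced as 1 library. The fetuses, 16 labelled female and 2 labelled male, had the same sire and different ewes, and the ewes were fed at their full maintenance requirement. No animal was treated, so the study has a single condition and the animals are its replicates. Allelic imbalance (AI) is a departure of the reads at a heterozygous SNP from an equal share of both alleles.

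GNAS encodes the stimulatory G protein alpha subunit, Gs alpha, which passes the signal of hormone receptors, such as the beta-adrenergic receptors, to adenylyl cyclase and so raises cyclic AMP. In brown fat this pathway drives lipolysis and heat production through UCP1. The locus is imprinted in mammals: it has several alternative first exons, some of them used from only the allele of one parent, that are spliced to shared downstream exons, while Gs alpha itself is made from both alleles in most tissues and mainly from the maternal allele in some. Reads over a shared exon do not say from which first exon a transcript came.

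The reads counted over all SNPs totalled 2,970,824 to 5,334,585 per animal. At the GNAS SNPs every animal had between 3,188 and 6,382 reads. Of 13 markers of brown fat, 6 had a SNP in the table and were detected in all 18 animals. The authors kept SNPs with 10 or more reads of both alleles in at least 5 animals, so this detection was largely fixed in advance. The deepest SNP of UCP1, the uncoupling protein that defines brown fat, had a level of 1,653 to 4,998 RPM. RPM is the reads at the SNP per 1,000,000 reads counted at SNPs. The lowest of the 6 markers was LEP, with 16.7 to 60.5 RPM. Of 18 markers of other cell types, just STAR, an adrenal steroid transport protein, and CD14, a monocyte receptor, had a SNP. They had at most 21.8 and 9.48 RPM, and the range of STAR overlapped that of LEP. Markers without a SNP could not be read. RS929 is labelled female but was called heterozygous at 29.1% of the 244 SNPs of chromosome X, against 54.1% to 69.7% in the other 15 females and 25.4% to 32.4% in the males. It was heterozygous for GNAS, and the permutation tests of the animals' shares were therefore also made without it.

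At the first SNP 11 animals were called heterozygous, 5 homozygous for the reference allele (0/0) and 2 homozygous for the alternate allele (1/1). The reference share, the part of an animal's reads that carried the reference allele, was 0.478 in RS930, the lowest animal, 0.616 in RS905, the median, and 0.630 in RS953, the highest. No animal lay between 0.492 and 0.616, and 6 animals exceeded 0.5 while 5 fell short of it. The 95% Clopper-Pearson interval lay above 0.5 in all 6 of the former and below 0.5 in 3 of the latter (these intervals cover counting error only, since the reads are not independent molecules). In RS933, with 2,172 reference and 2,262 alternate reads, the interval ran from 0.475 to 0.505.

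The second and the third SNP were heterozygous in 10 of these 11 animals, and RS905 was homozygous for the reference allele at both. At the second SNP the share ran from 0.435 in RS953 to 0.595 in RS933, with 5 animals on either side of 0.5 and every interval on the side of its share. At the third SNP it ran from 0.428 in RS919 to 0.588 in RS933, again with 5 animals on each side and no interval that held 0.5. The distance from an equal share was 0.0743 on average at the first SNP, 0.0715 at the second and 0.0712 at the third, so that no heterozygous animal came near the expression of a single allele. Among the homozygous animals, 0.0431% of the reads of 0/0 animals and 0.310% of those of 1/1 animals at the first SNP carried the other allele.

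**Figure D1:**
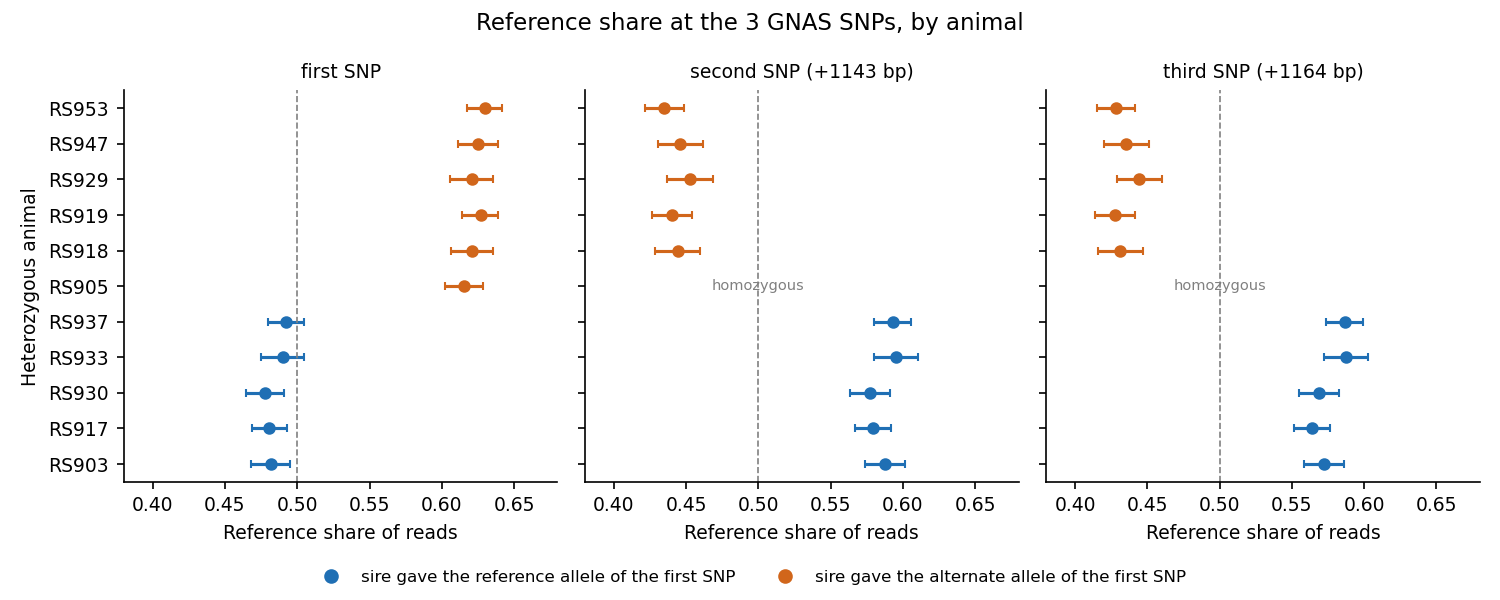
Reference share of reads (x axis) in each heterozygous animal (y axis) at the 3 GNAS SNPs, with bars for the 95% Clopper-Pearson interval and the dashed line at an equal share. Colours give the allele of the first SNP that the sire passed on, inferred from linked SNPs; the animals with a share from 0.616 to 0.630 at the first SNP have shares from 0.435 to 0.453 at the second, except RS905, which is homozygous there.

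The genotypes and the shares were tied between the SNPs. In 17 of the 18 animals the calls could be read as 2 haplotypes, one with the reference allele at the first SNP and the alternate allele at the second and the third (the first haplotype), and the other with the reverse (the second haplotype). RS905 was the exception, with a further haplotype that holds the reference allele at all 3 SNPs. In each of the 10 animals heterozygous at all 3 SNPs, the reference share was on opposite sides of 0.5 at the first and the second SNP, and on the same side at the second and the third. The higher haplotype was therefore the same at the 3 SNPs within every animal, the first haplotype in 5 animals and the second in 5.

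The size of the share of a haplotype depended on the SNP. The share of the first haplotype was higher at the first SNP than at the second in all 10 animals, by 0.0547 to 0.0853 (mean 0.0695 ± 0.00981, SD, n = 10 animals). Between the second and the third SNP, whose reads overlap, the difference was -0.0104 ± 0.00347 (SD, n = 10 animals).

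Summed over animals, as the study's likelihood ratio test on Poisson counts takes them, the reference share was 0.557 at the first SNP (unadjusted P = 3.70e-171), 0.520 at the second (P = 6.29e-18) and 0.509 at the third (P = 6.69e-05). All 3 SNPs thus passed 0.05 with the reference allele higher, as did 33.8% of all tested SNPs, while 45.0% passed in either direction. The median reference share over all tested SNPs was 0.519, and the third SNP lay below it. The summed reads joined animals that differed in direction. A Pearson chi-square test of equal shares between animals gave a statistic of 116, 110 and 109 per degree of freedom, where 1 is counting error, at Benjamini-Hochberg adjusted P = 2.45e-240, 1.33e-203 and 1.56e-201. Of all tested SNPs 15.4% passed this test.

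With the animals as replicates, the quasi-binomial F test with a dispersion moderated across all SNPs by limma gave adjusted P = 0.0102 at the first SNP, 0.448 at the second and 0.757 at the third, and called 24.4% of all SNPs, 19.2% with a higher reference and 5.23% with a higher alternate allele. The mean share at the first SNP was 0.560 ± 0.0727 (SD, n = 11 animals; P = 0.0312 by the two-sided exact sign-flip permutation test). It was 0.515 ± 0.0757 at the second (n = 10 animals; exact sign-flip permutation, P = 0.529) and 0.505 ± 0.0755 at the third (n = 10 animals; exact sign-flip permutation, P = 0.805). The call at the first SNP did not hold with the dispersion of that SNP alone (adjusted P = 0.102), with the median share of all SNPs as the null share (adjusted P = 0.0922) or, for the mean share, without any 1 of the 6 animals above 0.5 (exact sign-flip permutation, P = 0.0625 each), RS929 among them.

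The between-animal SD of the share beyond counting error was 0.0729, 0.0754 and 0.0750 at the 3 SNPs. Among the 496 SNPs with at least 5 heterozygous animals and a mean of 1,000 or more reads in each, the median was 0.0156, and the GNAS SNPs ranked 18, 15 and 16. Among all 24,205 SNPs, most of them with far fewer reads, they ranked 4,062, 3,714 and 3,776, with 83.2% to 84.7% of the SNPs at smaller values. Among the 496 deep SNPs, the other SNPs above the lowest GNAS value numbered 15, in 9 genes. The distance of the summed share from 0.5 was 0.0573, 0.0197 and 0.00910, against a median of 0.0257 for these deep SNPs. SNPs with 3 or more animals whose interval lay above 0.5 and 3 or more below, as at all 3 GNAS SNPs, made up 2.01% of the 4,370 SNPs with at least 8 heterozygous animals of 100 or more reads. Intervals narrow with depth, and heterozygous animals had 3,889 or more reads at the GNAS SNPs. This percentage is therefore not matched to GNAS for depth.

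**Figure D2:**
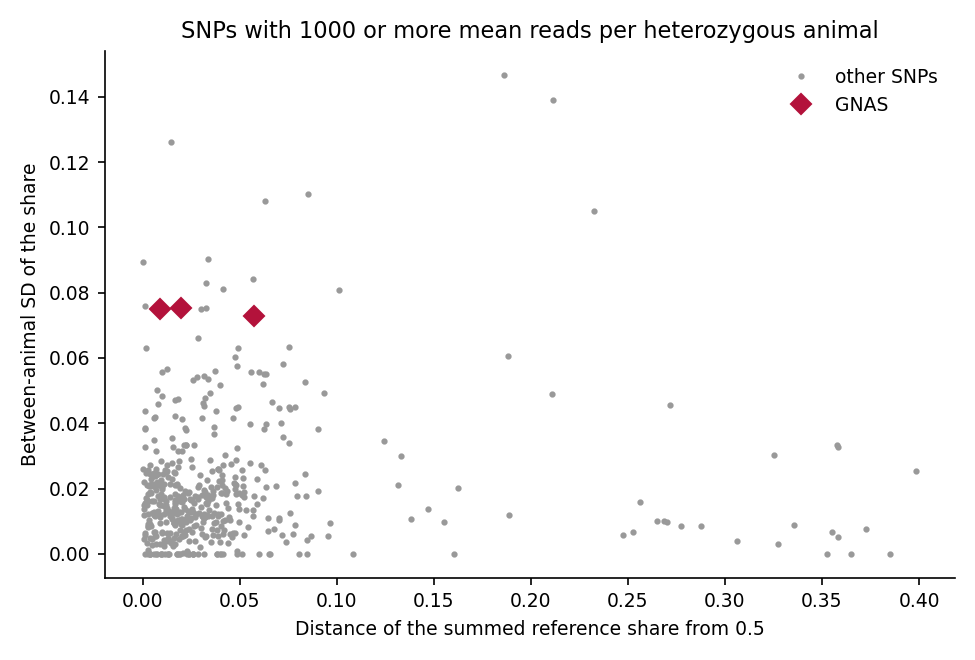
Between-animal SD of the reference share beyond counting error (y axis) against the distance of the summed share from 0.5 (x axis) for the 496 SNPs with a mean of 1,000 or more reads per heterozygous animal. The 3 GNAS SNPs (diamonds) have an SD from 0.0729 to 0.0754, where the median of all points is 0.0156.

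Because the animals had a common sire, the direction was also compared by the allele that the sire passed on, a comparison added after the shares had been seen. Both kinds of homozygotes occurred at each GNAS SNP, so the sire must have carried both alleles. At 42 SNPs of other genes within 5 Mb, both kinds of homozygotes again showed that the sire was heterozygous. Of these, 20 SNPs in 11 genes had at least 3 animals homozygous both there and at the first GNAS SNP, and in these animals the alleles were always paired in the same way. The allele received from the sire was read from these linked genotypes alone, without read counts, in all 11 heterozygous animals, and no animal had linked SNPs that disagreed. The other allele came from the ewe.

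The sire had passed on the reference allele of the first SNP, and with it the first haplotype, to RS903, RS917, RS930, RS933 and RS937, and the alternate allele and the second haplotype to RS905, RS918, RS919, RS929, RS947 and RS953. In the animals with the sire's reference allele the share at the first SNP was 0.482, 0.481, 0.478, 0.490 and 0.492, in that order. In those with the sire's alternate allele it ran from 0.616 to 0.630, with a median of 0.623. The classes did not overlap, which was so at 6.09% of the 2,843 SNPs that could be compared in this way. Those SNPs needed just 3 animals in each class. Small classes are more easily apart by chance, so this percentage is not matched to GNAS for class size. At the first SNP the reference share was 0.623 ± 0.00502 (SD, n = 6 animals) with the sire's alternate allele and 0.484 ± 0.00631 (SD, n = 5 animals) with its reference allele, a difference of 0.139 (SE 0.00349; exact two-sided permutation test, P = 0.00216, the smallest these numbers allow).

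At the second SNP the share was 0.587, 0.580, 0.577, 0.595 and 0.593 in RS903, RS917, RS930, RS933 and RS937. It was 0.444, 0.440, 0.453, 0.446 and 0.435 in RS918, RS919, RS929, RS947 and RS953. The difference between the class means was 0.143 (SE 0.00465; n = 5 against 5 animals, exact permutation test, P = 0.00794, the smallest possible). At the third SNP the corresponding shares were 0.564 to 0.588 and 0.428 to 0.444, with a difference of 0.142 (SE 0.00569; n = 5 against 5 animals, exact permutation test, P = 0.00794). The 3 SNPs share animals and are not independent of each other.

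The quasi-binomial F test with the sire's allele as a term, fitted over all 2,843 SNPs with at least 3 animals in each class, gave adjusted P = 1.98e-18, 9.37e-17 and 2.42e-16 at the 3 GNAS SNPs. It called 52 SNPs in 34 genes (1.83%), with the ewe's allele higher at 31 (1.09%). By P-value the GNAS SNPs ranked 1, 2 and 4. The size of their difference ranked 144, 130 and 134, so that 94.9% to 95.4% of the SNPs compared had smaller differences. Within the classes the dispersion at the first SNP was 0.735, at the second 1.07 and at the third 1.62, where 1 is counting error, compared with 109 to 116 when the classes were ignored.

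**Figure D3:**
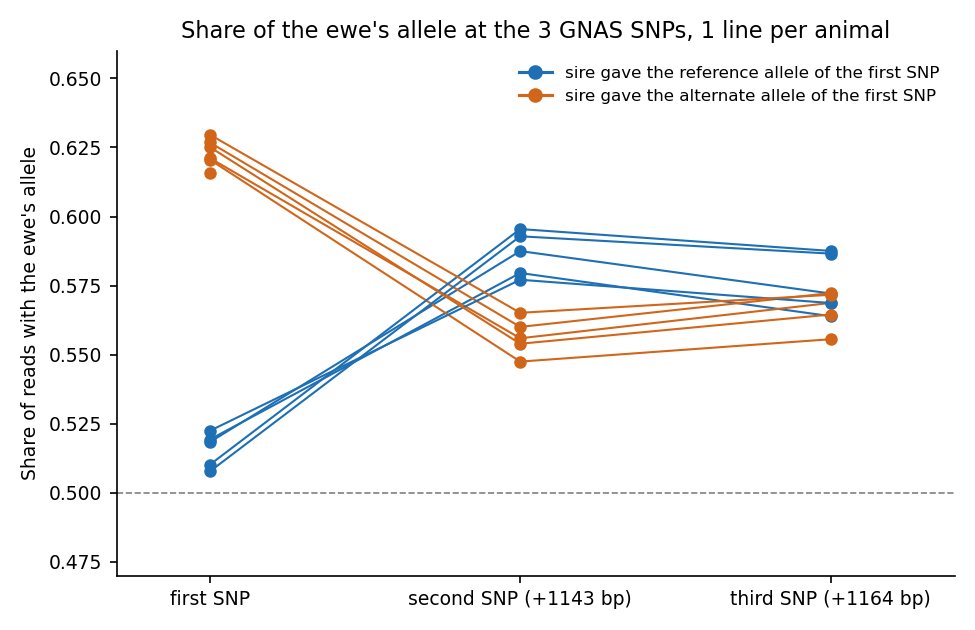
Share of reads with the allele inherited from the ewe (y axis) at the 3 GNAS SNPs (x axis), with 1 line per animal, coloured by the allele the sire passed on, and the dashed line at an equal share. All points lie above 0.5. The colours are far apart at the first SNP, at 0.508 to 0.522 and 0.616 to 0.630. They lie in the reverse order at the second, at 0.577 to 0.595 and 0.547 to 0.565, and overlap at the third.

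Counted by parent, the allele of the ewe had more reads than that of the sire in all 11 animals at the first SNP and in all 10 at the second and the third. Its share was 0.574 ± 0.0564 at the first SNP (SD, n = 11 animals; P = 0.000977 by the exact sign-flip permutation test), 0.571 ± 0.0173 at the second (n = 10 animals; exact sign-flip permutation, P = 0.00195) and 0.571 ± 0.00977 at the third (n = 10 animals; exact sign-flip permutation, P = 0.00195), the smallest P-values these numbers of animals allow. The size of the ewe's share depended on which allele came from the ewe, most at the first SNP. There it was 0.516 ± 0.00631 (SD, n = 5 animals) for the alternate allele and 0.623 for the reference allele. At the second SNP these shares were 0.557 ± 0.00662 (n = 5 animals) and 0.586, without overlap. At the third SNP they were 0.567 ± 0.00686 (n = 5 animals) and 0.576, with overlap. On average the ewe's share was thus higher for the reference allele at each SNP. The order of the haplotypes at the first SNP was therefore reversed at the second. The midpoints between the class means were 0.554, 0.515 and 0.505 at the first, second and the third SNP. Measured from these midpoints the ewe's share was 0.569, 0.572 and 0.571, equivalent to 1.32 to 1.33 reads of the ewe's allele for each read of the sire's.

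Relative to the reads at all other SNPs of the library, the ewe's allele had 624 ± 56.2 RPM and the sire's 467 ± 28.4 at the second SNP (SD, n = 10 animals). Without RS929 the mean share of the ewe's allele was 0.570, 0.574 and 0.573 at the 3 SNPs, and it was again higher in every animal (n = 10, 9 and 9 animals; exact sign-flip permutation, P = 0.00195, 0.00391 and 0.00391). Linked SNPs disagreed on the sire's allele at 7.44% of the autosomal heterozygous calls of RS929, within the range of 4.22% to 10.9% in the other animals. Since there was 1 sire, the parent of origin cannot be told apart from a property of the sire's own copies of GNAS that the ewes' copies of the same alleles lacked.

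Total reads at the first SNP were also compared between genotypes. The 5 animals called 0/0 had 1,234, 1,241, 1,285, 1,416 and 1,487 RPM, the 11 heterozygous animals 1,071 to 1,342, and the animals called 1/1 had 1,077 and 1,165. The classes overlapped in part. On the log2 scale the 0/0 animals were 0.25 higher than the 1/1 animals at the first SNP (permutation test of the F statistic over 3 classes, P = 0.0287), 0.12 higher at the second (P = 0.283) and 0.06 higher at the third (P = 0.742). The call at the first SNP was lost with median-of-ratios size factors (P = 0.0525) and without RS902, RS926 or RS943 (P = 0.117, 0.0862 and 0.0827). The animals homozygous for the first haplotype are 0/0 at the first SNP but 1/1 at the others, so the reference homozygotes at the second SNP were different animals.

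Within an animal, the ratio of reads at the first to the second SNP followed the genotype, in a comparison added after the levels were seen. It was 1.29 ± 0.0981 in 0/0 animals (SD, n = 5), 1.12 ± 0.0461 in heterozygous animals (n = 11) and 0.967 ± 0.0215 in 1/1 animals (n = 2; permutation test of the F statistic, P = 2e-05), with no overlap between 1/1 and the other classes. More reads were thus counted at the first SNP for each read at the second where the first haplotype was present, and in the same animals the share of that haplotype was higher at the first SNP. Whether reads with the alternate allele were placed less often at the first SNP was not tested.

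**Figure D4:**
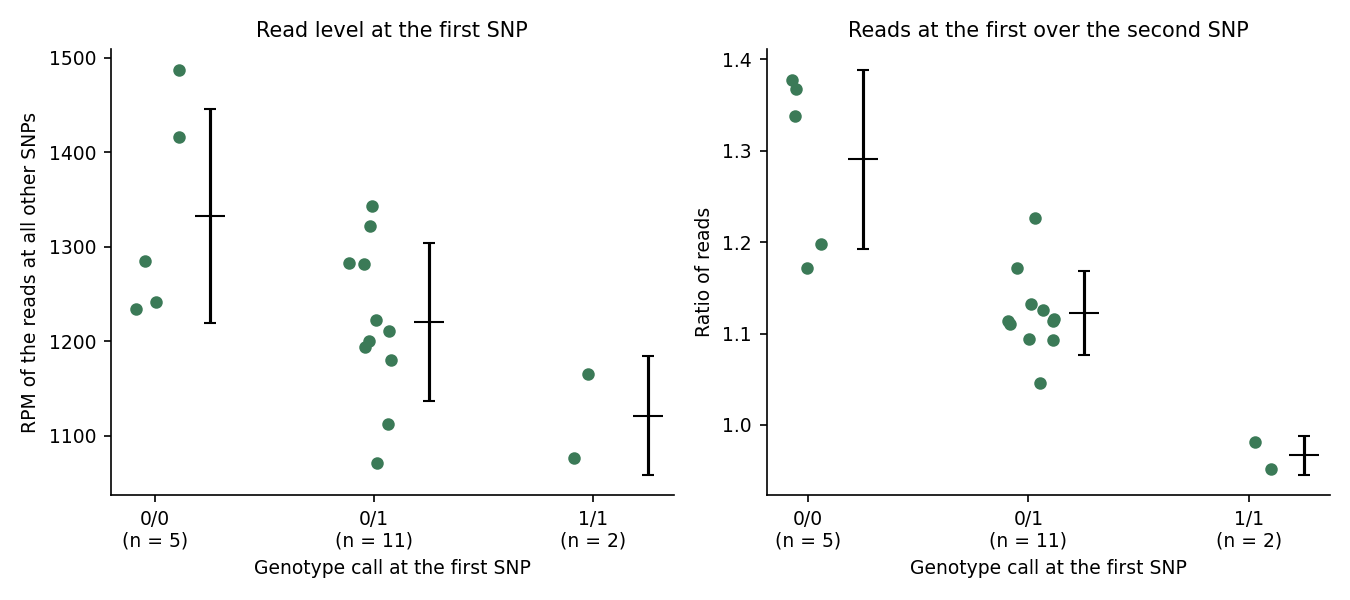
RPM, relative to the reads at all SNPs outside GNAS, at the first GNAS SNP (left) and the ratio of reads at the first to the second SNP (right) by the genotype call at the first SNP, with points for animals and bars for the mean and SD. The 1/1 animals have ratios of 0.951 and 0.982, below the other animals, which start at 1.05.

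The genes within 1 Mb of GNAS had 11 SNPs, of which the quasi-binomial test called 2, or 18.2%, both in NELFCD, against 24.4% of all SNPs. NELFCD, a subunit of the negative elongation factor complex, lies 75.7 kb from the first GNAS SNP. Its SNP at chr13:56701928 was heterozygous in exactly the 10 animals to which the sire had passed the first GNAS haplotype, and homozygous in the other 8. Its reference share was 0.577 ± 0.0557 (SD, n = 10 animals; quasi-binomial F test of limma, adjusted P = 0.000744), while at the next SNP, at chr13:56702141, it was 0.491 ± 0.0471 in the same animals. None of the 11 SNPs had a between-animal SD above 0.0489 or more than 398 reads in an animal.

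At 7 of these SNPs both classes of sire haplotype at GNAS held at least 2 heterozygous animals. CTSZ, a lysosomal cathepsin 80.1 kb away, was heterozygous in 16 animals, and the mean reference share was 0.490 ± 0.0488 with the second and 0.495 ± 0.0240 with the first haplotype from the sire (SD, n = 8 and 8 animals; exact permutation test, P = 0.802). STX16, a syntaxin next to GNAS whose deletion is known to alter imprinting of the locus in humans, had 0.522 and 0.508 (n = 2 and 5 animals; exact permutation test, P = 0.810). RAB22A, an endosomal small GTPase 528 kb away, had 0.556 ± 0.0810 and 0.424 ± 0.104 at 1 SNP (n = 8 and 10 animals; exact permutation test, P = 0.00855), with 15 to 43 reads per animal. This SNP was called heterozygous in all 18 animals, as was the next SNP of the gene. The other SNPs of RAB22A gave P = 0.713 and 0.0317 in the same exact permutation test. In that test the second SNP of CTSZ gave 0.465 and the SNP of NELFCD that could be compared 0.80. None of these 7 P-values is adjusted. The parent of each allele was not assigned at these SNPs, and the differences in them are those between animals with either sire haplotype.

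**Figure D5:**
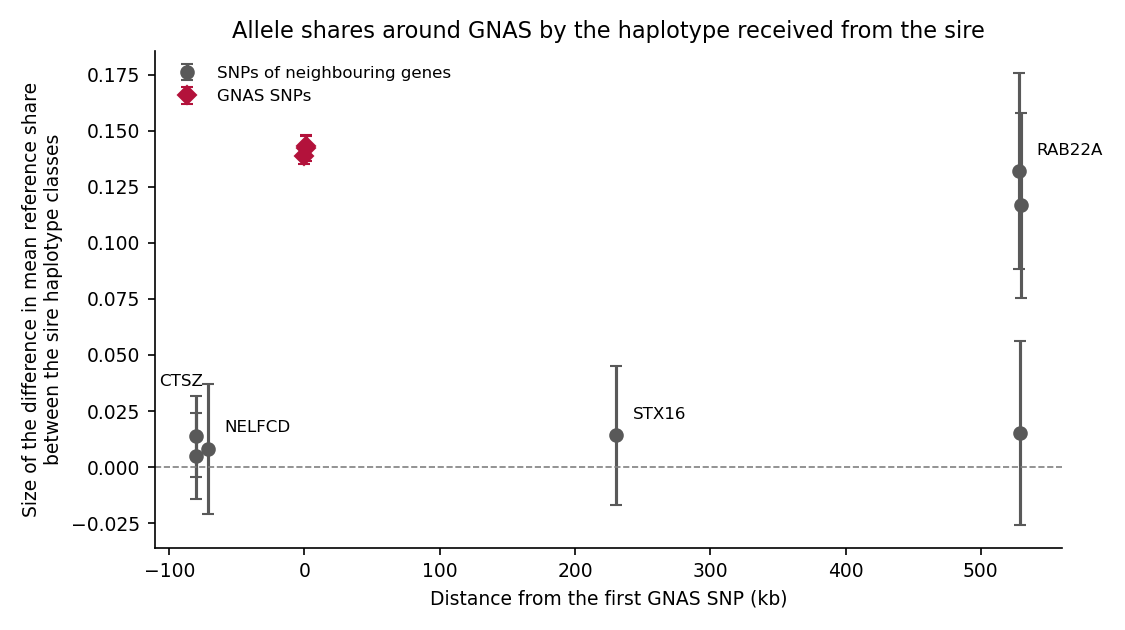
Size of the difference in mean reference share between animals with the second and with the first GNAS haplotype from the sire (y axis, bars for the SE between animals) against the distance from the first GNAS SNP in kb (x axis). The GNAS SNPs differ by 0.139 to 0.143 with short bars, and those of CTSZ, NELFCD and STX16 by at most 0.0141, while those of RAB22A differ by 0.0152, 0.117 and 0.132 with long bars.

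The genes around Gs alpha in the pathway were counted by their roles, and each count of called SNPs is to be read against the 24.4% of all SNPs that the quasi-binomial test called, 19.2% with a higher reference and 5.23% with a higher alternate allele. The share given for a gene is, unless stated, that of its called SNP farthest from 0.5, so that it was selected, and the gene's other called SNPs, where there were any, were nearer to an equal share. Of the receptors coupled to Gs, 4 of 32 genes had SNPs, and the quasi-binomial test called 2 of 16 SNPs (12.5%), with the reference allele higher. CRHR2, a receptor of the urocortin peptides, had a SNP with the intervals of 3 animals on each side of an equal share, with shares of 0.403 to 0.719 (n = 8 animals; summed share 0.555). Of the beta and gamma subunits that bind Gs alpha, 3 of 15 genes had 9 SNPs and 2 were called (22.2%), both in GNB1, at a share of 0.548 ± 0.0270 (SD, n = 12 animals) at the top SNP. Of the regulators of the receptors and of Gs, 9 of 13 genes had 50 SNPs, with 7 called with a higher reference and 5 with a higher alternate allele (24%). The receptor kinases ADRBK2 and GRK4 had shares of 0.708 ± 0.0818 (n = 6 animals) and 0.604 ± 0.104 (n = 12 animals), and RGS2, which limits G protein signalling, 0.595 ± 0.0971 (n = 13 animals). Over all their SNPs the median summed share was 0.488 in ADRBK2, 0.565 in GRK4 and 0.562 in RGS2. The other G alpha subunits, 5 of 14 genes, had 1 called SNP of 37 (2.70%, below the 24.4% of all SNPs), in GNA11, with a share of 0.545 ± 0.0430 (n = 12 animals).

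Downstream, ADCY6 was the single adenylyl cyclase of 10 with SNPs, and 4 of its 12 SNPs were called (33.3%), with a share of 0.598 ± 0.0619 (SD, n = 6 animals) at the top SNP and a median summed share of 0.506 over the gene. Of the phosphodiesterases that break down cyclic AMP, 7 of 16 genes had 41 SNPs, of which 12 were called with a higher reference and 1 with a higher alternate allele (31.7%, against 24.4% of all SNPs). PDE4A had the largest distance, at 0.736 ± 0.0693 (n = 18 animals), PDE8A had 0.570 ± 0.0637 (n = 10 animals) and PDE3B, which insulin activates in fat cells, 0.550 ± 0.0340 (n = 12 animals). That SNP of PDE4A was called heterozygous in every animal, with 17 to 45 reads in each. All 9 SNPs of PDE4A were called, so that 1 gene gave most of the calls in this list. Protein kinase A, its inhibitors and anchors, and Epac had 14 of 23 genes with 105 SNPs, of which 19 were called with a higher reference and 2 with a higher alternate allele (20%). PRKACA, the catalytic subunit of protein kinase A, had a SNP called heterozygous in all 18 animals with shares from 0.118 to 0.632, with 8 intervals above and 9 below an equal share.

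Among targets of cyclic AMP in brown fat, 9 of 18 genes had 24 SNPs, with 4 called with a higher reference and 3 with a higher alternate allele (29.2%, against 24.4% of all SNPs). CREBBP, a coactivator of CREB, had a share of 0.724 ± 0.0613 (SD, n = 18 animals), PLIN1, the lipid droplet protein phosphorylated in lipolysis, 0.575 ± 0.0599 (n = 10 animals), and UCP1 0.536 ± 0.0361 (n = 7 animals). That SNP of CREBBP was called heterozygous in every animal, with 20 to 55 reads in each. The share at the deepest SNP of CREBBP was 0.511 ± 0.0719 (n = 8 animals). That SNP of PLIN1 had 53 to 107 reads per animal, while at the deepest SNP of the gene, with 3,480 to 5,488 reads, the share was 0.531 ± 0.0177 (n = 6 animals). In UCP1 it was the single called SNP of 5, and the deepest had 0.506 ± 0.0355 (n = 10 animals). The markers of brown fat had 6 of 13 genes with 30 SNPs, and 12 were called with a higher reference and 1 with a higher alternate allele (43.3%, against 24.4% of all SNPs). The adipokine gene ADIPOQ had a share of 0.627 ± 0.0440 (n = 9 animals) at the SNP farthest from 0.5, with 65 to 114 reads, but 0.527 ± 0.0155 (n = 10 animals) at its deepest SNP, with 14,021 to 23,899 reads. LEP, another adipokine gene, had 0.420 ± 0.0694 (n = 7 animals) at its 1 called SNP of 3. SNPs with 3 or more intervals on each side of an equal share were found, among the genes of the pathway, in CRHR2 and PRKACA. Levels of the markers of other cell types are given above, and none of their 5 SNPs passed the quasi-binomial test of limma, adjusted or unadjusted, while 2 passed the summed test, which called 45.0% of all SNPs.

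Other imprinted genes are those known from other mammals to be expressed from the allele of one parent. Of 51 such genes 16 had 51 SNPs, and the quasi-binomial test called 24 with a higher reference and 5 with a higher alternate allele, in 11 genes, or 56.9% of their SNPs against 24.4% of all. Their median distance of the summed share from 0.5 was 0.114, compared with 0.0339 over all SNPs other than those of GNAS. BLCAP, on the same chromosome as GNAS, had a reference share of 0.908 ± 0.0169 (SD, n = 11 animals), UBE3A, a ubiquitin ligase, 0.862 ± 0.0477 (n = 6 animals), and IGF2R, the receptor that clears IGF2, 0.122 ± 0.0308 (n = 7 animals), each at the called SNP farthest from 0.5. Over their SNPs the summed share ranged from 0.802 to 0.907 in BLCAP, from 0.507 to 0.858 in UBE3A and from 0.123 to 0.867 in IGF2R. None of the 51 SNPs had 3 intervals on each side of an equal share, which was so at 0.474% of all SNPs outside GNAS. This count depends on the numbers of heterozygous animals and of reads. At the deepest SNP of IGF2R, with 119 to 230 reads per animal, the share was 0.683 ± 0.355 (SD, n = 8 animals). Its animals were thus far apart, and the quasi-binomial test did not call it (adjusted P = 0.0826). Just 3 of the 51 SNPs could be compared by the allele of the sire, and 0 passed. At the BLCAP SNP above, all 11 intervals lay above 0.5, with shares of 0.872 to 0.927 and a between-animal SD of 0. All 3 SNPs of BLCAP were called with a higher reference allele and are among the 24 above. The cause of these shares at BLCAP was not tested.

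The genes with a SNP most like the first GNAS SNP in the between-animal SD, among SNPs with intervals on both sides, were SUCLG2 (0.0740, n = 11 animals), SPARCL1 (0.0749, n = 9 animals), ACAD9 (0.0775, n = 12 animals), GLB1 (0.0671, n = 11 animals) and COL5A3 (0.0793, n = 18 animals). SUCLG2, a subunit of succinyl-CoA ligase, was the one among these 5 that could be compared by the sire's allele, and it did not pass (limma quasi-binomial F test, adjusted P = 0.103). By read level, the deepest SNPs of RPN1, GLT8D1, FGFR1, LYVE1 and FXYD5 followed that of the first GNAS SNP most closely, with Pearson's r from 0.723 in FXYD5 to 0.761 in RPN1 over 18 animals, out of 5,801 genes. These are the highest of many correlations between libraries that share their totals, and are given as a description.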

How the data were processed

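Reads of 18 PRAT libraries were analysed from the authors' table. The authors aligned the reads to Oar v3.1 with STAR and called SNPs and genotypes with GATK (per the labels and the methods). The authors deposited raw counts of reads of each allele at each SNP and animal, with no normalization, and the genotype call, which rests on the same reads. An alignment to the reference can favour reads with its allele. The authors' statistic, P-value, higher allele and reference share columns were not used.

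Shares, likelihood ratio and Pearson chi-square tests were computed at every SNP with a heterozygous animal (24,244 SNPs) with Python 3.11.15 and scipy 1.17.1. The quasi-binomial F test used SNPs with at least 3 heterozygous animals and moderated dispersions with limma 3.58.1 in R 4.3.3. P-values were adjusted by Benjamini-Hochberg over all SNPs tested. Permutation tests were exact, or had 100,000 resamples for read levels. The designed test of the GNAS share by the genotype at another GNAS SNP was not run, since RS905 alone was homozygous there. The sire's allele was inferred at SNPs with at least 2 homozygotes of each kind, from linked SNPs of other genes within 5 Mb that had at least 3 informative animals of 1 phase. On simulated data at the real depths, the quasi-binomial test recovered 99.5% of 200 SNPs with a share changed in 1 direction. These SNPs were drawn from those with many heterozygous animals and reads. Their simulated spread between animals was smaller than that at GNAS, so the percentage does not apply to GNAS or to shallower SNPs.

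From each list, genes with a SNP having 3 or more intervals on each side of 0.5 were named, otherwise the 3 called genes farthest from 0.5 with at least 5 heterozygous animals. The 5 genes most like GNAS by SD and by level were named. One animal is written PS910 in the table and RS910 in the labels. The members, lists and tests were chosen with earlier results of these data known.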

Additional observations from a re-analysis of the deposited data

How the results depend on the processing

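Of 65 recomputations under another setting, 49 kept the direction and the side of the threshold, or stayed within 1.5 times for a count, and of 230 that left out 1 animal 211 did. The recomputations that could be made of the comparison by the sire's allele and of the share of the ewe's allele kept both. In the comparison by the sire's allele, leaving out an animal homozygous at the SNP returned the same difference. Its P-value was each time the smallest that the numbers of animals allow, so these recomputations are weak checks. At the first SNP the comparison by the sire's allele could not be made without RS902, without RS920 or with 3 homozygotes of each kind required, since these were its 2 animals called 1/1. At the first SNP the quasi-binomial adjusted P was 0.102 with the dispersion of the SNP alone and 0.0922 with the median share as null, and the mean share of 0.560 then gave P = 0.0889 by the exact sign-flip permutation test. Among females the mean was 0.562 (exact sign-flip permutation, P = 0.0625). Counting animals with 10 reads of both alleles whatever their call turned the summed share at the first SNP to 0.488, because it adds RS902 and RS920, which were called 1/1 and had 12 and 14 reference reads. With the median share as null, the summed share of 0.520 at the second SNP no longer passed (P = 0.606), its mean share of 0.515 fell below the null, and at the third SNP the summed share of 0.509 and the mean of 0.505 were below it, with a quasi-binomial adjusted P of 0.762. Coded by the first haplotype, the summed shares at the second and the third SNP were 0.480 and 0.491. Leaving out 1 animal at a time gave summed shares of 0.549 to 0.567, 0.510 to 0.530 and 0.499 to 0.519 at the 3 SNPs, and means of 0.553 to 0.568, 0.506 to 0.524 and 0.495 to 0.513. At the third SNP the sum fell below 0.5 without RS937, and lost its call without RS903, RS917, RS930 or RS933. The mean there fell below 0.5 without any 1 of these 5 animals. The between-animal SDs ranged from 0.0715 to 0.0741, 0.0730 to 0.0771 and 0.0733 to 0.0773.

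The log2 difference in read level between 0/0 and 1/1 animals was 0.24 with median-of-ratios size factors at the first SNP, and 0.19 to 0.30, 0.06 to 0.17 and 0.00 to 0.10 without single animals at the 3 SNPs. With 30 reads of each allele required in 5 heterozygous animals, the summed test called 5,667 SNPs in place of 10,901 and the quasi-binomial test 3,328 in place of 5,900, as fewer SNPs were tested. Bonferroni adjustment left 973 SNPs in place of 3,717 in the heterogeneity test. With linked SNPs within 1 Mb, the sire's allele was known in 7 animals at the first SNP (exact permutation test, P = 0.0476), and no comparison could be made at the others. Both alleles were compared within each animal, but animals could not be paired between conditions because they form a single group. None of the 14 groups of 4 to 10 animals tested for an outlying value by Dixon's criterion had one.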

Other observations

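In the comparison by the sire's allele, 2 genes of brown fat on the lists above also passed, each at 1 SNP. These were 2 of the 9 SNPs of the brown fat markers that could be compared, against 1.83% of all 2,843 SNPs. At a SNP of PLIN1 on chromosome 18 the reference share was 0.501 with the sire's alternate and 0.565 with its reference allele (n = 3 and 3 animals; quasi-binomial F test of limma, adjusted P = 0.00221), so that the sire's allele was the higher one relative to the midpoint. At 1 of the 13 SNPs of ADIPOQ the shares were 0.5002 and 0.477 (n = 5 and 5 animals; quasi-binomial F test of limma, adjusted P = 0.0252). The ewe's allele was higher, and the dispersion within the classes was 10.6 in contrast to 0.735 at the first GNAS SNP. Measured from the midpoint, the ewe's allele differed by 0.0114 at ADIPOQ and by -0.0322 at PLIN1. The median size over all SNPs compared was 0.0201, so the difference at ADIPOQ was a small one.

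Beside the GNAS SNPs, the other 5 of the 8 SNPs with the smallest P-values in this comparison were in ACSF2, an acyl-CoA synthetase, GPD1, the cytosolic glycerol-3-phosphate dehydrogenase, and FANCD2, a DNA repair gene. At the top SNP of ACSF2 on chromosome 11 the reference share was 0.365 with the sire's alternate and 0.555 with its reference allele (n = 3 and 5 animals), the opposite direction to GNAS. At that of GPD1 on chromosome 3 it was 0.616 and 0.492 (n = 3 and 6 animals), the same direction. At the SNP of FANCD2 on chromosome 19 it was 0.391 and 0.819 (n = 4 and 5 animals; quasi-binomial F test of limma, adjusted P = 3.16e-08), opposite to GNAS and the largest difference of the 8. These genes were picked for their values after these were seen, and the difference between them and GNAS was not tested.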
